A study of Drosophila melanogaster with 26 samples.

Results

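Chromatin immunoprecipitation with the RSF-1 antibody called 316 regions on the arms of *Drosophila* chromosomes 2 and 3 at which no ACF1 library had a peak. They are named RSF-1-alone regions here. The peaks of all 13 antibody libraries were merged where neighbours shared at least 50 bp, and a region was kept when at least 2 of 3 RSF-1 libraries and none of 10 ACF1 libraries had called it. The 316 regions are 4.15% of the 7606 merged regions on these arms, and 10863 regions were found on all sequences. The regions were thus chosen by the calls of the 13 antibody libraries, so that which of these libraries called them is a description and carries no test. The regions called in at least 2 RSF-1 libraries and at least 1 ACF1 library, 3549 on the same arms, served for comparison and are named shared regions.

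ACF1 and RSF-1 are the signature subunits of remodeling factors that contain the ATPase ISWI, which slides nucleosomes along DNA and spaces them evenly. In a ChIP-seq experiment cross-linked chromatin is sheared, the fragments bound by an antibody are sequenced, and places with an excess of fragments are called as peaks. Chromatin of a mutant that lacks the antigen, serum drawn before immunisation and unselected input chromatin each serve as a control, since fragments of some regions can be retrieved without specific binding of the antibody.

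The series held 26 libraries from 10 batches of chromatin of embryos aged 0–12 h, fixed with 3.7% formaldehyde. RSF-1 was precipitated with 1 rabbit serum, from WT embryos in 2 libraries (WT rep1 with 5636 peaks and WT rep2 with 3545 peaks) and from embryos of genotype rsf1-3602 in 1 library (rsf-1 rep1 with 5346 peaks). ACF1 was precipitated from WT embryos with the rat monoclonal antibody 3F1 (3 libraries) and the rabbit sera Rb1 (1 library) and Rb2 (3 libraries), and from acf1-7 embryos with Rb1 (1 library) and Rb2 (2 libraries). Controls were 3 WT libraries with pre-immune serum, all labelled ACF1, and 10 inputs (7 WT, 2 acf1 and 1 rsf-1). No pre-immune serum was labelled for RSF-1. All samples were labelled Oregon-R. Both alleles are deletions that arose when a P-element was excised imprecisely, and they could not be checked in lists of peaks. The ACF1 lists were shorter than the longest RSF-1 lists, with 1001–5184 peaks and a median of 2565. The RSF-1 libraries came from batches 10, 6 and 9, of which batch 6 also gave the Rb1 WT library and Rb2 WT rep1. No batch held chromatin of more than 1 genotype, so that batch and genotype cannot be told apart. The depth of the libraries is unknown from lists of peaks, and whether a region without a peak lacked enrichment was not tested.

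Most RSF-1-alone regions came from the longest RSF-1 lists. WT rep1 and rsf-1 rep1 together, without WT rep2, called 258 of the 316 regions (81.6%), whereas 48 regions (15.2%) had a peak in all 3 RSF-1 libraries. WT rep2 and rsf-1 rep1 together gave 7 regions (2.22%), and both WT libraries without rsf-1 rep1 gave 3 regions (0.949%). By library, rsf-1 rep1 had a peak at 313 regions, WT rep1 at 309 and WT rep2 at 58. At shared regions the order of the 2 most frequent combinations was the opposite, since 2262 (63.7%) had a peak in all 3 RSF-1 libraries and 1198 (33.8%) in WT rep1 and rsf-1 rep1 alone. WT rep2 thus called 18.4% of the RSF-1-alone regions and 66.2% of the shared regions. The number of regions rested on single libraries: it was 51 without rsf-1 rep1, 56 without WT rep1 and 816 without the ACF1 library Rb2 acf1 rep2.

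**Figure D1:**
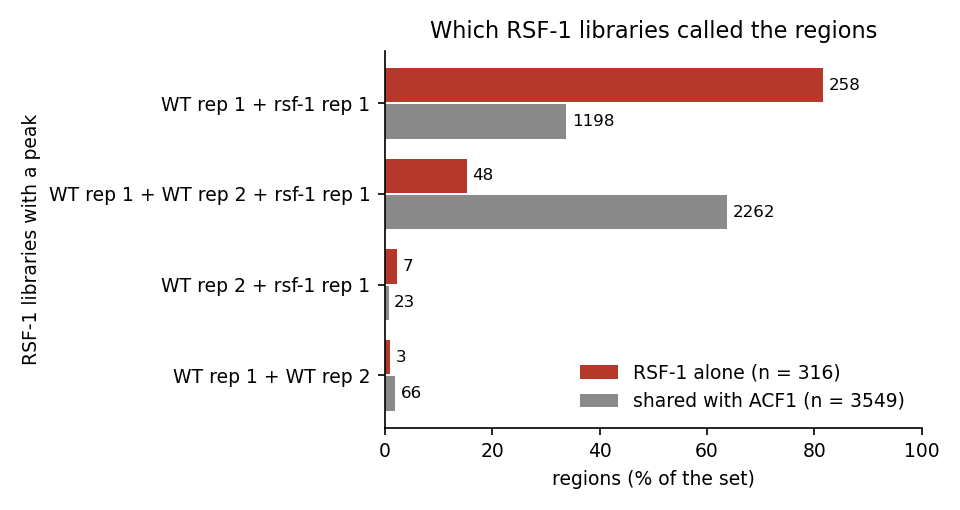
Percentage of RSF-1-alone regions (red, n = 316) and of shared regions (grey, n = 3549) on the horizontal axis, for each combination of RSF-1 libraries with a peak. WT rep1 with rsf-1 rep1 holds 81.6% of the RSF-1-alone regions, and all 3 libraries hold 63.7% of the shared regions.

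Positions are given in Release 5 of the genome (dm3). The first region by position on each arm that all 3 RSF-1 libraries called lay at 3540035–3540249 on 2L, 3306625–3306848 on 2R, 3061188–3061392 on 3L and 58582–58804 on 3R. The nearest ACF1 peak was 302, 313, 312 and 343 bp away, respectively. These regions do not stand for all 48 that the 3 libraries called. Over the 48, the nearest ACF1 peak ranged from an overlap of 26 bp (21828342–21828560 on 2L) to a gap of 21236 bp (12716315–12716545 on 2R). Regions with a peak in WT rep1 and rsf-1 rep1 alone began on 2L with 94569–94800 and 479102–479328, where the nearest ACF1 peaks were 7403 and 5991 bp away. The first regions called in WT rep2 and rsf-1 rep1 were 8809909–8810155 and 15339609–15339814 on 2L, and the nearest WT rep1 peaks were 15185 and 5575 bp away. Over all 7 regions of this combination the nearest WT rep1 peak was 36–15185 bp away, so that some were missed by a narrow margin and others had no WT rep1 peak near them.

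All 3 regions called in both WT libraries but not in rsf-1 rep1 were on 3L. The region at 10654467–10654684 had an rsf-1 rep1 peak at a distance of 189 bp. The region at 13997193–13997411 had one at 1008 bp. The region at 14749476–14749739, which is named because there were so few and not by the rule for named regions, had one at 683 bp. For each of them rsf-1 chromatin therefore gave a call nearby, although not at the region itself. The 258 regions without a WT rep2 call had a median gap of 7234.5 bp to the peaks of that library, and 31 of them had a WT rep2 peak within 1000 bp. The WT rep2 list was shorter than that of rsf-1 rep1 (3545 against 5346 peaks), and the part of this in the gaps was not tested.

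Where several RSF-1 libraries called a region, their peaks lay at nearly the same position. All peaks of the RSF-1-alone regions were 200 bp wide, and the merged regions spanned 200–338 bp with a median of 222 bp. The centres of the WT rep1 and rsf-1 rep1 peaks were a median of 18.5 bp apart at RSF-1-alone regions (n = 306) and 15 bp apart at shared regions (n = 3460). Of these pairs, 83.3% and 90.1% had centres within 50 bp. The medians for the other pairs of libraries were 18 bp (WT rep1 and WT rep2, n = 51) and 17 bp (WT rep2 and rsf-1 rep1, n = 55), against 17 and 20 bp at shared regions. The peaks of WT and rsf-1 chromatin thus differed in position by much less than the width of a peak. Merging required an overlap of at least 50 bp, which bounds these distances.

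The lines of the deposited lists are not sorted by position, and what orders them is not given in the sources used here. The place of a region in a list nevertheless agreed between RSF-1 libraries. Over regions called by both, Spearman's rho was 0.93 for WT rep1 and rsf-1 rep1 (n = 3766), 0.84 for both WT libraries (n = 2379) and 0.83 for WT rep2 and rsf-1 rep1 (n = 2340). These values are across regions, which are not replicates. Place stands for the line number as a percentage of the length of the list.

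RSF-1-alone regions stood late in the RSF-1 lists. Their median place was 73.1% in WT rep1 (n = 309), 63.0% in WT rep2 (n = 58) and 71.5% in rsf-1 rep1 (n = 313). Shared regions had median places of 39.0%, 41.7% and 40.6%. Shared regions that a single ACF1 library had called stood in between in WT rep1 (63.8%) and rsf-1 rep1 (63.3%), and close to the RSF-1-alone regions in WT rep2 (62.4%). The earliest RSF-1-alone region was at a place of 20.5% in WT rep1, 18.3% in WT rep2 and 15.5% in rsf-1 rep1, so that the first lines of each list held none of them. The 48 regions that all 3 libraries called stood earlier in the lists of WT rep1 and rsf-1 rep1, with medians of 58.7% and 59.8%, than the regions called by 2 libraries, with medians of 75.1% and 75.6%. In WT rep2 they did not, with medians of 63.0% and 61.1% (n = 48 and 10).

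**Figure D2:**
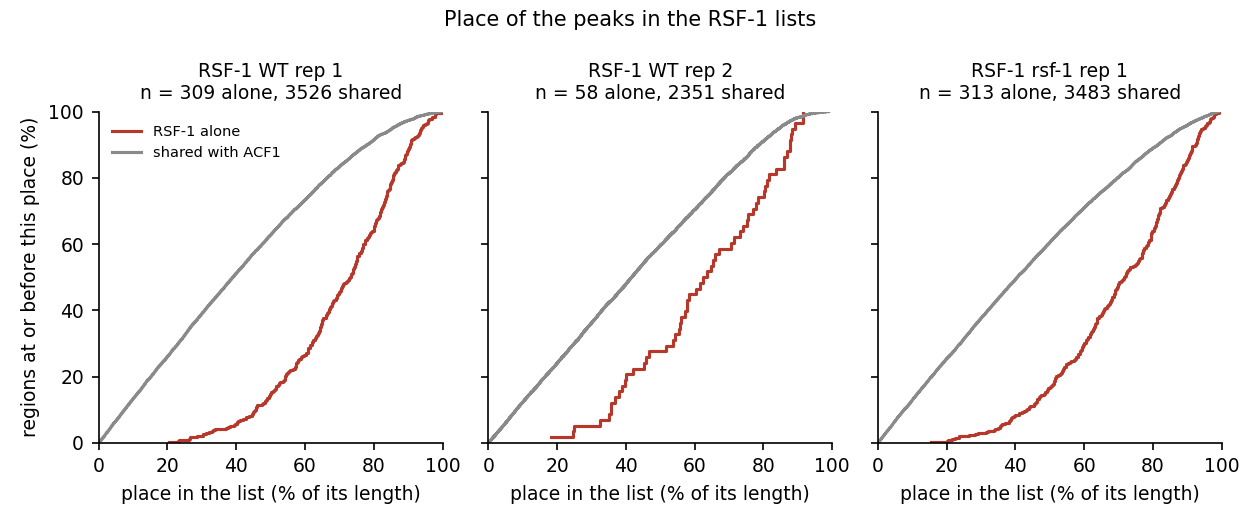
Cumulative percentage of RSF-1-alone regions (red) and shared regions (grey) by their place in each RSF-1 list, as a percentage of the length of the list. The median place of RSF-1-alone regions is 73.1% in WT rep1, 63.0% in WT rep2 and 71.5% in rsf-1 rep1, and that of shared regions is 39.0%, 41.7% and 40.6%.

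The share of RSF-1 regions without an ACF1 call rose along each list. Among the regions called in at least 2 RSF-1 libraries, 0 of 920 in the first quintile of the WT rep1 list were without an ACF1 peak, which allows a share of up to 0.326% (3 counts of 920). In the following quintiles the share was 18 of 904 (1.99%), 64 of 841 (7.61%), 118 of 757 (15.6%) and 109 of 413 (26.4%, exact 95% interval 22.2–30.9%). The mean number of ACF1 libraries with a peak at these regions fell from 6.54 in the first quintile to 2.01 in the last. In WT rep2 it fell from 7.16 in the first quintile to 3.82 in the next to last and was 4.20 in the last. Regions late in the lists were therefore called by fewer ACF1 libraries than regions at the start. From the first to the last quintile the share rose from 0.113% to 22.7% in rsf-1 rep1 and from 0.177% to 6.64% in WT rep2. Intervals cover counting error only and treat regions as independent.

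**Figure D3:**
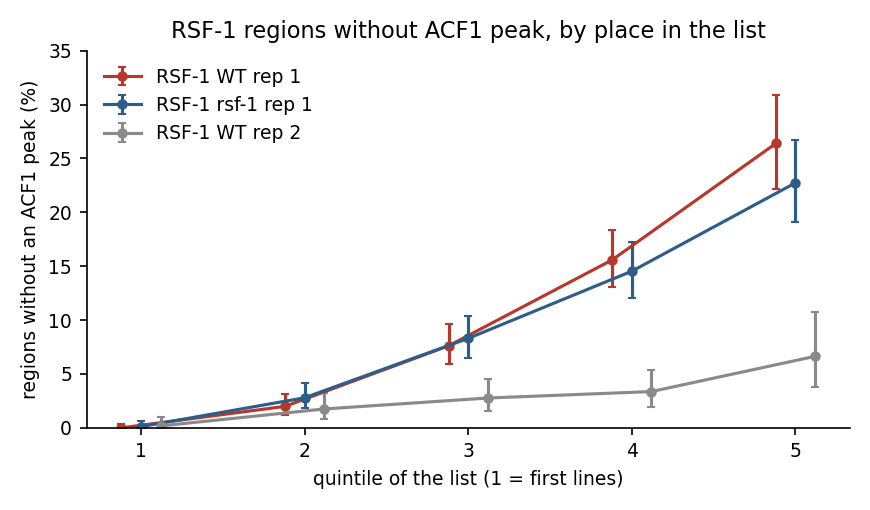
Regions without an ACF1 peak as a percentage of all regions called in at least 2 RSF-1 libraries, by quintile of each RSF-1 list, with exact 95% intervals as bars. The last quintile reaches 26.4% in WT rep1, 22.7% in rsf-1 rep1 and 6.64% in WT rep2.

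Many of the RSF-1-alone regions stood beyond the place at which the shortest RSF-1 list ended. In WT rep1, 212 of 309 (68.6%) came after place 3545, compared with 833 of 3526 shared regions (23.6%). In rsf-1 rep1, 186 of 313 (59.4%) did so, compared with 23.3% of the shared regions. When every RSF-1 list was cut to its first 3545 lines, 101 regions met the rule, 3.67% of the 2754 regions then called in at least 2 RSF-1 libraries, and all 101 were among the 316. With lists cut to 2565 lines, the median length of an ACF1 list, 34 regions met it (1.65% of 2055), of which 33 were among the 316. Without a cut the regions were 8.18% of 3865 (interval 7.33–9.08%). The number and the share were thus lower with shorter RSF-1 lists. Only the RSF-1 lists were cut, so that the number could hardly rise. The lower share restates that these regions stood late in the lists. These cuts were chosen after seeing the data.

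RSF-1-alone regions were found on every arm. They numbered 73 on 2L (8.62% of the 847 regions called in at least 2 RSF-1 libraries), 79 on 2R (8.38% of 943), 92 on 3L (9.87% of 932) and 72 on 3R (6.30% of 1143, interval 4.96–7.87%). Outside these arms, the same rule gave 107 regions on X (11.7% of 916, interval 9.67–13.9%) and 11 on chromosome 4 (15.5% of 71). Along the arms the regions were spread about as the shared regions were: each quintile of an arm held 16.8–22.8% of the RSF-1-alone and 18.0–21.3% of the shared regions. The gap from a region to the next RSF-1-alone region had a median of 76756 bp, and 46 regions had another within 10000 bp. Among these were 5 pairs less than 1000 bp apart, the closest being 7362322–7362532 and 7362787–7363013 on 3L, 255 bp apart, and 14749030–14749236 and 14749552–14749773 on 3R, 316 bp apart. In both pairs a single member had a peak in WT rep2.

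Some RSF-1-alone regions had an ACF1 call near them. The next region with an ACF1 peak was a median of 2579 bp away (interquartile range 690–6179 bp), and 100 of the 316 regions (31.6%) had one within 1000 bp. From shared regions the next such region was a median of 3847 bp away, and 21.6% had one within 1000 bp. The 386 regions called in 1 RSF-1 library and no ACF1 library had a median of 2574.5 bp and 32.4%. Shared regions hold an ACF1 peak themselves, so that their gap runs to another ACF1 region and is not a like distance. The median gap of RSF-1-alone regions was close to that of regions that missed the rule by 1 RSF-1 call. The rule itself bears on this distance, since an ACF1 peak that reaches a region by 50 bp takes it out of the set.

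**Figure D4:**
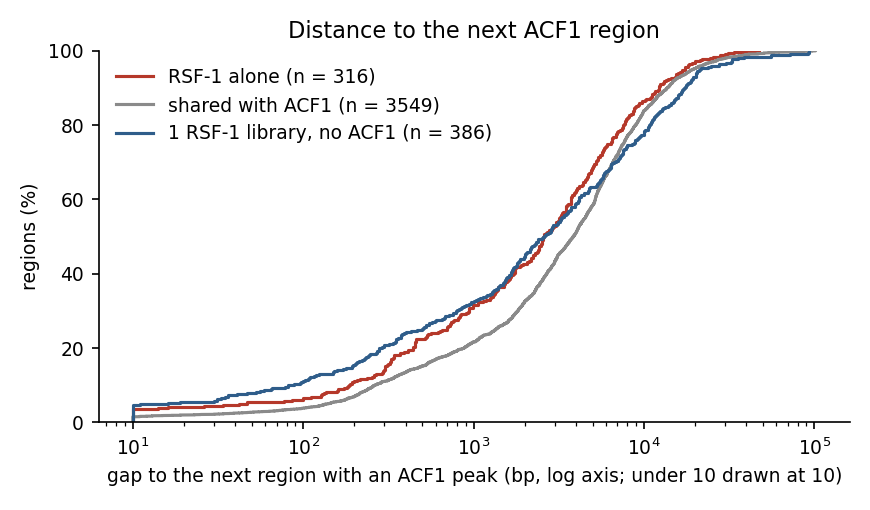
Cumulative percentage of regions by the gap to the next region with an ACF1 peak (bp, log axis, gaps under 10 bp drawn at 10 bp), for RSF-1-alone regions, shared regions and regions called in a single RSF-1 library. The medians are 2579, 3847 and 2574.5 bp. For shared regions the gap is to another ACF1 region, since they hold an ACF1 peak themselves.

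By ACF1 library, the number of RSF-1-alone regions with a peak within 1000 bp ran from 4 (Rb1 WT rep1, 1001 peaks) to 69 (Rb2 acf1 rep2, 5184 peaks). An overlap too small to count, of 1–49 bp, was found at 9 regions. The largest overlaps were 36 bp at 16473913–16474208 on 3L, 30 bp at 14490578–14490825 on 2L and 29 bp at 21469877–21470156 on 3L. Of the 9 regions, 6 touched a peak of Rb2 acf1 rep2. At the other end, the regions 13814576–13814793 on 2R, 15764788–15764999 on 3R and 7087245–7087458 on 3L had no ACF1 region within 47256, 33970 and 31069 bp. The first of them stood at place 5521 of 5636 in WT rep1 and at place 5164 of 5346 in rsf-1 rep1, close to the end of both lists.

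On the other side of the rule, 644 regions had at least 2 RSF-1 calls and exactly 1 ACF1 call. That call came from Rb2 acf1 rep2 at 496 of them, from 3F1 WT rep2 at 82, from Rb2 WT rep2 at 42 and from Rb2 WT rep3 at 15. The other 6 ACF1 libraries supplied between 0 and 5. The Rb2 acf1 rep2 peaks at these regions had a median place of 63.8% in their own list. A single library, made from acf1-7 embryos, therefore drew most of the border between RSF-1-alone and shared regions. Of the 386 regions with 1 RSF-1 call and no ACF1 call, 189 were in rsf-1 rep1, 170 in WT rep1 and 27 in WT rep2.

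To measure calls that did not help to choose the regions, each of the 13 antibody libraries was left out in turn, the regions were rebuilt from the other 12, and the calls of the library left out were counted. The question was whether an RSF-1 library calls RSF-1-alone regions more readily than an ACF1 library does, relative to shared regions. For each library the percentage of all regions on these arms with one of its peaks is given as the background. At regions that the other libraries placed in the RSF-1-alone set, rsf-1 rep1 had a peak at 48 of 51 (94.1%, background 52.6%, shared regions 97.2%). WT rep1 had one at 49 of 56 (87.5%, background 55.6%, shared 99.0%). WT rep2 had one at 50 of 308 (16.2%, background 33.2%, shared 65.3%). WT rep2 was thus below its own background, unlike the other RSF-1 libraries.

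Among the ACF1 libraries, Rb2 acf1 rep2 had a peak at 500 of 816 such regions (61.3%, background 50.8%, shared 90.2%) and was the only one above its background. 3F1 WT rep2 called 82 of 398 (20.6%, background 34.0%, shared 58.6%). Rb2 WT rep2 called 42 of 358 (11.7%, background 38.6%, shared 69.6%). The libraries with long ACF1 lists therefore called some of the regions that the others had left to RSF-1. Rb2 WT rep3 called 15 of 331 (4.53%, background 30.1%), 3F1 WT rep1 called 7 of 323 (2.17%, background 22.6%) and 3F1 WT rep3 called 3 of 319 (0.940%, background 18.7%). Rb2 WT rep1 called 1 of 317 (0.315%, background 23.4%). Rb2 acf1 rep1, Rb1 acf1 rep1 and Rb1 WT rep1 called 0 of 316 each, with backgrounds of 16.8%, 10.7% and 7.33%. For these libraries 0 of 316 allows a share of up to 0.949% (3 counts of 316), and the upper end of the exact 95% interval is 1.16%.

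**Figure D5:**
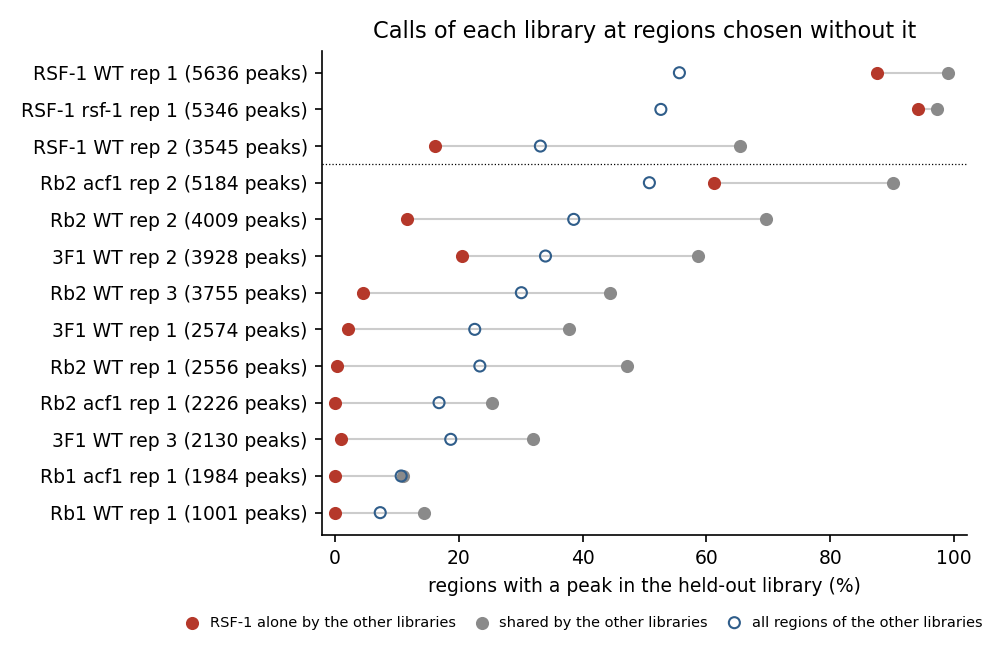
Percentage of regions with a peak in the library left out, for each of the 13 antibody libraries, at regions that the other libraries place in the RSF-1-alone set (red), in the shared set (grey) and in all regions on these arms (open circles). The red points of rsf-1 rep1 (94.1%) and WT rep1 (87.5%) lie near the grey ones, and that of Rb2 acf1 rep2 (61.3%) is the highest of the ACF1 libraries.

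Relative to shared regions, the test of RSF-1 against ACF1 libraries could not decide whether one kind calls RSF-1-alone regions more readily, for the reasons given below. The percentage at RSF-1-alone regions minus that at shared regions was -21.2 ± 24.5 percentage points for RSF-1 (SD, n = 3) and -32.9 ± 14.1 percentage points for ACF1 (SD, n = 10). The difference was 11.7 percentage points (two-sided exact permutation test with 286 arrangements, p = 0.315, smallest possible p = 0.0035). It was -2.40 percentage points without rsf-1 rep1, 1.41 without WT rep1 and 2.71 without WT rep2. In these settings only 1 other RSF-1 library was left when an RSF-1 library was measured. The RSF-1 values then came from regions with a single RSF-1 call, so that the measure was not the same. RSF-1 and ACF1 libraries were measured on regions chosen with unlike strictness and from each other's lists. The permutation test does not allow for this. When shared regions were not subtracted, the means were 66.0% and 10.2%, which is given without a test because the choice of regions by RSF-1 calls and by the absence of ACF1 calls bears on its direction. Within batch 6, the 1 batch with both kinds of library, WT rep2 had -49.1 percentage points, Rb1 WT rep1 -14.4 and Rb2 WT rep1 -46.9, so that the difference there was -18.4. The measure cannot fall below the negative of the share at shared regions, a bound that Rb2 acf1 rep1, Rb1 acf1 rep1 and Rb1 WT rep1 reached with 0 calls, and Rb2 WT rep1 had 1 call. The value in batch 6 therefore does not stand for more ACF1 calls at these regions, of which WT rep2 called 50 of 308. The length of the lists moves with these values, and its part in them was not tested.

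Chromatin of the rsf-1 mutant was then compared on regions chosen in WT libraries alone. On these arms 146 regions had a peak in both RSF-1 WT libraries and in none of the 7 ACF1 WT libraries. The RSF-1 library from rsf-1 embryos had a peak at 141 of them (96.6%, interval 92.2–98.9%), beside 97.1% of the 2222 regions that the WT libraries shared and 60.7% of all 6386 regions of the WT libraries. The RSF-1 antibody thus called nearly all of these regions in chromatin of rsf1-3602 embryos too. The interval, which covers counting error over regions and no spread between libraries, includes the share at shared regions. There was 1 such library, so that no test over replicates was possible. When the regions were chosen without RSF-1 WT rep1 or without RSF-1 WT rep2, the share was 78.1% or 78.4%. These regions needed a call in only 1 RSF-1 WT library, so that they were chosen less strictly than the 146.

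ACF1 libraries from acf1 embryos differed among themselves at the same 146 regions. Rb2 acf1 rep2 had a peak at 95 of them (65.1%, interval 56.7–72.8%, background 57.6%, shared 94.2%). Rb2 acf1 rep1 had a peak at 1 (0.685%, background 18.2%, shared 38.6%). Rb1 acf1 rep1 had a peak at none (background 10.8%, shared 17.0%). Without Rb2 acf1 rep2, acf1 chromatin therefore called 0.685% of these regions, and with it 65.1% (background of the 3 libraries together 64.1%, shared 95.1%). Of the 146 regions, 93 had a peak in rsf-1 chromatin and in acf1 chromatin, 48 in rsf-1 chromatin alone, 2 in acf1 chromatin alone and 3 (2.05%) in neither. Of all regions of the WT libraries, 26.5% had a peak in neither mutant and 9.44% in rsf-1 chromatin alone, and of the shared regions 1.04% and 3.83%. A call in neither mutant was thus rare at the 146 regions, as it was at shared regions. The interval for the 146 regions, which covers counting error alone, ran from 0.426% to 5.89%.

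Input libraries, which the rule did not use, rarely had a peak at RSF-1-alone regions. At least 1 of 10 inputs had a peak at 7 of 316 regions (2.22%, interval 0.895–4.51%), beside 2.13% of all regions on these arms and 56 of 3549 shared regions (1.58%). Input WT chromatin 2, with 2359 peaks the longest of the input lists, called 5 regions, input WT chromatin 3 called 3 and input WT chromatin 1 called 1. The remaining 7 inputs called none, and among them were the inputs of batches 6, 9 and 10, the chromatin of the RSF-1 libraries. The paper's supplement lists these inputs as the controls of the RSF-1 profiles. If they entered peak calling, their calls are not independent of the RSF-1 lists. The background in these inputs was 0.171%, 0.184% and 0.145% of all regions on these arms, so that few calls or none were to be found among 316 regions of any kind. The percentage at RSF-1-alone regions minus that at shared regions averaged 0.034 percentage points (SD 0.207, n = 10, lower in 7 inputs and higher in 3, exact permutation of signs, two-sided p = 0.594, smallest possible p = 0.00195). The 7 lower inputs were those without a call at RSF-1-alone regions, and they called 0.0564–0.113% of the shared regions. The absence of calls thus set their sign, so that the test could hardly detect a difference between RSF-1-alone and shared regions. The mean difference changed sign with several settings. It was -0.0541 without Rb2 acf1 rep2, -0.0065 without input WT chromatin 2 and -0.00505 without input WT chromatin 3. It was -0.168 without rsf-1 rep1, -0.210 without WT rep1 and -0.0886 in the inputs of batches 4 to 10 alone. In these last settings no input called any RSF-1-alone region, which fixes the sign, and no test is given.

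The first 5 of the regions with an input peak lay at 20021287–20021537 and 20763316–20763562 on 2R and at 199743–199976, 19798133–19798357 and 23561681–23561901 on 3L. Input WT chromatin 2 called the first 4 and input WT chromatin 3 the last. The region at 199743–199976 on 3L was the earliest of all RSF-1-alone regions in WT rep1, at place 1154, and stood at place 1086 in rsf-1 rep1. It was also 129 bp from an ACF1 peak.

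Pre-immune libraries had no peak at any of the 316 regions, which allows a share of up to 0.949% (3 counts of 316; upper end of the exact 95% interval 1.16%). These sera were labelled for ACF1, so that they are no direct control for the RSF-1 serum. The background was 2.47% of all regions on these arms, and 18 shared regions (0.507%) had such a peak. The lists of the 3 pre-immune libraries held 621, 1 and 379 peaks. The difference to shared regions averaged -0.178 percentage points (SD 0.183, n = 3, exact permutation of signs, two-sided p = 0.5), and 3 libraries cannot give a p below 0.25. Without a call at RSF-1-alone regions the difference could not be positive, so that the test decides nothing. Lists this short can call few regions of any kind.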

How the data were processed

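ChIP-seq libraries of *Drosophila* embryos were deposited as 1 list of peaks per library. Per the submitters' processing notes, the authors mapped reads with Bowtie 1.1.1 to dm3 (Release 5) and called peaks with HOMER. Each deposited line gives where a peak starts and ends, with no score, count or depth. The paper's supplement pairs each ChIP profile with an input control. Whether and how that input entered the calling of each list is not given in the sources used here. Positions were used as deposited.

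Regions were merged in Python 3.11.15 with numpy 2.4.6, tested with scipy 1.17.1 and drawn with matplotlib 3.10.9. In simulated lists the rule recovered 1000 of 1000 RSF-1-alone and 1000 of 1000 shared regions. These lists held no overlaps near 50 bp, so that they check the code and not the border of the rule. Percentages carry exact (Clopper-Pearson) 95% intervals. Groups of libraries were compared with exact permutation tests at a threshold of 0.05, and p-values measure the spread between libraries, some of which share a batch of chromatin. No library was pooled.

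Named regions were the first by position on each arm in all 3 RSF-1 libraries, the first 2 of each pair of libraries, the first 5 with a control peak, the 2 closest pairs, the 3 farthest from ACF1 regions and the 3 with the largest overlap under 50 bp. The regions, rules and tests were chosen with earlier results of these data known. Alternatives were other overlaps, all sequences, other sets of libraries and, chosen after seeing the data, shortened lists. Genes, promoters, motifs and sequences were not analysed here, because the annotation used was not of Release 5 and positions were not converted.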

Additional observations from a re-analysis of the deposited data

Results flagged for a closer look

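Rb2 acf1 rep2 stood apart from the other ACF1 libraries in its percentage of calls at RSF-1-alone regions. When each ACF1 library was left out and the regions were rebuilt, it had a peak at 61.3% of the RSF-1-alone regions, and the next library, 3F1 WT rep2, at 20.6%. The gap between them, as a share of the range over the 10 ACF1 libraries, exceeded Dixon's 95% critical value. Each library was measured on its own rebuilt set, that of Rb2 acf1 rep2 holding 816 regions. The check is therefore a description and gives no rate of chance. The check was also run on other percentages of the ACF1 and input libraries, and no other value was flagged. Relative to shared regions, Rb2 acf1 rep2 had -28.9 percentage points, beside an ACF1 mean of -32.9. Rb1 WT rep1, Rb1 acf1 rep1 and Rb2 acf1 rep1 lay at the floor of 0%, which the check does not allow for. The Rb2 acf1 rep2 list of 5184 peaks was the longest of the ACF1 lists, and the part of the length in its 61.3% was not tested.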

How the results depend on the processing

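The number of RSF-1-alone regions stayed within 1.5 times of 316 under 15 of 22 alternatives. It was 48 with all 3 RSF-1 libraries required, 146 with WT libraries alone, and 101 and 34 with RSF-1 lists cut to 3545 and 2565 lines. Leaving out 1 library gave 51–816. Calls of the library left out kept their direction and side of the threshold under 18 of 21 alternatives, although the threshold decides nothing here. Their difference was 55.8 percentage points without subtraction of shared regions, where the choice of regions bears on the direction, -18.4 in batch 6, and -2.40 (without rsf-1 rep1) to 17.2 with 1 library left out. Where that was an RSF-1 library, the RSF-1 values came from regions with a single RSF-1 call. The difference was also taken in blocks. With permutation within replicate numbers as a block the difference was 5.95 (exact p = 0.571), although the numbers mark no shared culture or batch. For inputs, 20 of 29 alternatives kept both. The difference reversed to -0.0911 with an overlap of 1 bp (exact permutation p = 0.236), -1.85 on all sequences (p = 0.00195), -0.168 with all 3 RSF-1 libraries required and -0.0886 in batches 4 to 10 (0 calls in RSF-1-alone regions in both), and ran from -0.210 to 0.0868 with 1 library left out, negative without Rb2 acf1 rep2 (-0.0541), rsf-1 rep1 (-0.168), WT rep1 (-0.210), input WT chromatin 2 (-0.0065) or input WT chromatin 3 (-0.00505). For pre-immune libraries all 21 alternatives kept both (-0.268 to -0.0685 with 1 library left out). Their side of the threshold was fixed beforehand, since 3 libraries cannot give a p below 0.25. WT-defined regions were called in rsf-1 chromatin at 78.1–96.7% and in acf1 chromatin at 0.685% (without Rb2 acf1 rep2) to 74.5% (without Rb2 WT rep2) with 1 library left out, and 10 of 12 and 11 of 15 alternatives moved these values by less than their intervals. When an RSF-1 WT library was left out, the WT-defined regions were chosen by a single RSF-1 call. The alternatives on list length, on batches and on WT-defined regions were chosen after seeing the data. Depth is unknown, and it limits which weak enrichments were called. Motif counts were not run.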

Other observations

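Outside the arms of chromosomes 2 and 3, the same rule gave 137 regions: 107 on X, 11 on chromosome 4, 7 on 2RHet, 5 on 3LHet, 1 each on 2LHet and 3RHet, 3 on unplaced sequence and 2 on the mitochondrial genome. No control comparison was made for them alone.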
